A study of Mus musculus with 8 samples.

Results

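The fibroblast growth factor (FGF) genes, their receptors and the genes that FGF signalling switches on in feedback were followed through RNA sequencing of embryonic mouse hypothalamus. The members were taken by name: every symbol made of Fgf and a number, the receptors Fgfr1 to Fgfr4, the Sprouty genes Spry1 to Spry4, Spred1 to Spred3, Dusp6, Etv1, Etv4 and Etv5. This gave 37 of the 22725 gene symbols found at both ages, 18 of them secreted ligands, 4 genes of the intracellular class, 4 receptors and 11 feedback genes. The study set wild-type embryos against embryos mutant for Foxd1, a forkhead transcription factor gene of the developing hypothalamus, to ask what Foxd1 does for its neurons. There were 8 libraries: 1 per genotype at E12.0, 1 per genotype at E12.5 and 2 per genotype at E17.5, where E gives the day of gestation. Each library was made from pooled RNA, with 8 Foxd1-null and 10 control embryos in the whole series, and the allele and strain are not given in the sources used here. The source names call the controls wild-type, although the account of the extraction could also be read as including mutant carriers. No label says that the pools came from separate litters, so p-values measure the spread between these libraries, which may be technical.

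FGF ligands bind receptor tyrosine kinases at the cell surface together with heparan sulfate, and the signal runs through adaptors, RAS and the MAP kinases to transcription. Among the genes it switches on are its own brakes, the Sprouty and Spred proteins and the phosphatase DUSP6, and the ETS factors Etv1, Etv4 and Etv5, which are widely used as readouts of FGF activity. In the developing hypothalamus and infundibulum FGF ligands are known for roles in ventral midline growth, in induction of the pituitary and in the maintenance of progenitors.

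Levels are given in FPKM, the number of fragments per kilobase of transcript scaled to the size of the library, so genes can be compared per unit length. In every list of values below, wild-type stands before mutant. Foxd1 itself was lower in the mutant at each stage, with 24.95 and 2.77 FPKM in the E12.0 pair, 30.3 and 2.50 in the E12.5 pair, and 3.90, 1.96, 0.396 and 0.230 in the E17.5 libraries. All 16 hypothalamic markers were detected in the tables of both ages, with a summed level of 182 to 293 FPKM in the early libraries and 114 to 157 in the late ones. Pomc alone made up 38.9, 11.3, 18.6 and 41.4 FPKM of the late sums. Pituitary markers, 9 genes, summed to 109, 45.5, 75.8 and 92.0 FPKM in the same libraries. The late hypothalamic sums are therefore not compared between libraries. Summed telencephalic markers, 11 genes, stood at 51.1 to 54.2 FPKM in 3 of the E17.5 libraries and at 116 in mutant replicate 2, which therefore stands apart. Depth could be recovered from the low values only at E17.5, where it was 30.3 to 43.3 M fragments per library. Small RNA genes held 7.83% to 20.8% of the FPKM in the early libraries and 1.36% to 2.17% in the late ones. Levels across ages are given below in deposited FPKM, without rescaling for this share.

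Most secreted ligands had low levels. Of the 18 ligands 15 had a mean under 1 FPKM at both ages, and the other 3 were Fgf15, Fgf9 and Fgf18. Fgf15, the mouse counterpart of the human ligand FGF19 and a gene of ventral forebrain progenitors, was the most abundant ligand early. The E12.0 pair read 11.5 and 14.8 FPKM, the E12.5 pair 12.4 and 9.61, and the E17.5 libraries 2.36 and 1.69 (wild-type) and 1.47 and 1.43 (mutant). Every late value lay below every early value, and the late mean was 0.169 times the early mean in wild-type and 0.119 times in mutant.

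Fgf9, a ligand made by neurons, and Fgf18, of the Fgf8 class, were low early and above 1 FPKM late. Fgf9 read 0.305 and 0.432 FPKM in the E12.0 pair, 0.810 and 0.907 in the E12.5 pair, and 2.52, 2.96, 2.45 and 2.74 late. Fgf18 read 0.499 and 0.306 FPKM, then 0.617 and 0.729, and late 1.98, 1.78, 1.95 and 1.999. For both genes the 4 late libraries lay above the 4 early ones, and the genotypes overlapped at E17.5.

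Fgf8, the organizer ligand of the anterior midline and isthmus, stayed under 1 FPKM. Its E12.0 pair read 0.421 and 0.668 FPKM, its E12.5 pair 0.314 and 0.792, and its late libraries 0.241, 0.291, 0.103 and 0.144. The mutant value was the higher one in both early pairs and the lower one at E17.5, where all values were small: at these depths 3 fragments on 1000 nt of transcript make 0.0693 to 0.0989 FPKM. Midbrain and isthmus, which also hold Fgf8, were represented by 6 markers that summed to 0.0725 to 0.585 FPKM early and 0.693 to 1.999 late, and their part in the level of Fgf8 was not tested.

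The remaining ligands had no library above 1 FPKM. Fgf1 lay between 0.0150 and 0.0621 FPKM early and between 0.537 and 0.906 late. Fgf2 was listed at 0 in both E12.0 libraries, at 0.282 and 0.325 FPKM in the E12.5 pair and between 0.439 and 0.794 late. Fgf10, a ligand of the infundibulum and of hypothalamic tanycytes, ranged from 0.0504 to 0.239 FPKM early and from 0.210 to 0.360 late. Fgf4 was listed at 0 in all 8 libraries, Fgf6 in 7 and Fgf21 in 6. Fgf3, Fgf5, Fgf7, Fgf16, Fgf17, Fgf20, Fgf22 and Fgf23 lay between 0 and 0.417 FPKM.

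The intracellular class, Fgf11 to Fgf14, encodes FGF homologous factors that are not secreted and bind voltage-gated sodium channels in neurons. Its summed level was 11.5 to 19.1 FPKM in the early libraries and 58.1 to 64.6 in the late ones. Fgf13 had the highest level of the class, with an E12.0 pair of 7.24 and 4.33 FPKM, an E12.5 pair of 7.49 and 7.55, and late values of 26.999, 27.3, 26.2 and 30.7. Fgf14 stood at 3.02 to 5.29 FPKM early and 16.4 to 17.1 late. Fgf12 had the widest step, from 1.10 and 1.499 FPKM in the E12.0 pair and 2.06 and 1.78 in the E12.5 pair to 11.6, 13.1, 12.7 and 13.2 late, a mean ratio of 7.82 in wild-type and 7.88 in mutant. Fgf11 did not share this step: its early values of 2.41 to 5.01 FPKM spanned its late values of 2.99 to 4.15. Neuronal markers, 12 genes, summed to 1356 to 2328 FPKM early and 3531 to 3826 late, with 10 of the 12 higher in every late library, and their part in the levels of Fgf12, Fgf13 and Fgf14 was not tested. In a bulk sample, fewer cells of a type and less RNA per cell cannot be told apart.

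Of the 4 receptors, Fgfr2 and Fgfr3 were lower late, Fgfr1 overlapped and Fgfr4 was higher late at a low level. Fgfr3, a receptor of progenitors and astrocytes, was the most abundant member early, with an E12.0 pair of 43.7 and 50.8 FPKM, an E12.5 pair of 54.6 and 54.8, and late values of 15.3, 15.5, 14.9 and 14.4. Fgfr2 stood at 12.7 to 14.8 FPKM early and 9.44 to 10.6 late. Both were lower in all 4 late libraries than in any early one, and the late mean of Fgfr3 was 0.314 times the early mean in wild-type and 0.277 times in mutant. Fgfr1 stood at 13.6 to 18.6 FPKM early and 11.97 to 13.97 late, so its ranges overlapped. Fgfr4 stood between 0 and 0.0652 FPKM early and between 0.190 and 0.255 late. Fgfr3 exceeded Fgfr1 and Fgfr2 by over 2-fold in every early library, whereas at E17.5 its level lay within a few FPKM of that of Fgfr1. Of 10 progenitor markers 9 were lower in every late library, while all 7 markers of astrocytes and tanycytes were higher (summed 25.7 to 44.4 FPKM early, 163 to 182 late). The part of either cell type in the receptor levels was not tested.

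In deposited FPKM all 10 detected feedback genes were higher in every late library than in any early one. The same held for 41.2% of all genes with any value above 0, and Spry3 was listed at 0 throughout. In wild-type the ETS factors Etv4 and Etv5 had the largest ratios of this group, and in mutant Etv4 and Spry4. Etv4 read 0.371 and 0.434 FPKM in the E12.0 pair, 0.501 and 0.523 in the E12.5 pair, and 4.44, 4.55, 4.67 and 3.83 late, a ratio of 10.3 in wild-type and 8.88 in mutant. Etv5 read 0.879 and 0.944 FPKM, then 1.22 and 1.76, and late 7.24, 6.94, 6.42 and 7.06, a ratio of 6.75 in wild-type and 4.99 in mutant. Both genotypes showed this step in each of these genes. Etv1 stood at 1.999 to 2.70 FPKM early and 5.04 to 6.36 late.

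Among the inhibitors Spred1, a membrane-bound brake on RAF activation, had the highest level, at 14.2 to 20.9 FPKM early and 24.8 to 26.5 late. Dusp6, the phosphatase of the MAP kinase ERK, read 7.89 and 9.56 FPKM in the E12.0 pair, 11.7 and 10.4 in the E12.5 pair, and 13.4, 12.49, 13.5 and 13.9 late, a ratio of 1.32 in wild-type and 1.37 in mutant. Spry1 and Spry2, which restrain RAS signalling, stood at 3.66 to 7.18 and 3.95 to 5.38 FPKM early and at 9.14 to 10.1 and 8.85 to 9.86 late. Spry4 did not exceed 0.469 FPKM early and stood at 1.80 to 1.96 late, a ratio of 4.03 in wild-type and 6.77 in mutant. Spred3 ranged from 3.81 to 6.30 FPKM early and from 8.27 to 9.17 late, and Spred2 from 2.84 to 4.87 early and from 4.94 to 5.46 late. The highest early value of Spred2, in wild-type at E12.0, lay just under its lowest late value. That library had the largest share of FPKM in small RNA genes, 20.8%, and the lowest FPKM total, 414254. The separation of Spred2, and of Dusp6 with its small step, may therefore change with the scaling.

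The promoters of 3 feedback genes, picked by name, are shown as examples. In deposited FPKM the feedback genes were higher together at E17.5, as were 41.2% of all genes with any value above 0. A shared control was not tested. The sequences are the 250 bases before the transcription start from RefSeq, build GRCm38.p6, which is not the build the submitters named. An entry was found for 27 of the 37 members, 8 of them feedback genes, and for none of Etv4, Spry3 and Spry4. Capitals mark the letters AGGAAG, a core of sites bound by the PEA3 group of ETS factors to which Etv1, Etv4 and Etv5 belong, or CTTCCT, the same letters on the other strand.
Dusp6, chr10:99262981-99263230, plus strand: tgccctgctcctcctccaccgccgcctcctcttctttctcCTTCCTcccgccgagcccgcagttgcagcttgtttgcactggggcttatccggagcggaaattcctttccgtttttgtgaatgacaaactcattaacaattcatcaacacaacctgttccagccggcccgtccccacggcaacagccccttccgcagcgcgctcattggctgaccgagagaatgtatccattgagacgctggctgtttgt
Spred2, chr11:19924192-19924441, plus strand: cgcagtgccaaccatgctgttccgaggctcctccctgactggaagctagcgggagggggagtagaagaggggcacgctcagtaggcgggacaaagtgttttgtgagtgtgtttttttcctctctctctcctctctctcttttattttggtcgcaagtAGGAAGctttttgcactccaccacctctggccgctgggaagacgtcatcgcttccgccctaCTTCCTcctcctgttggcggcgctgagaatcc
Spry2, chr14:105896820-105897069, minus strand: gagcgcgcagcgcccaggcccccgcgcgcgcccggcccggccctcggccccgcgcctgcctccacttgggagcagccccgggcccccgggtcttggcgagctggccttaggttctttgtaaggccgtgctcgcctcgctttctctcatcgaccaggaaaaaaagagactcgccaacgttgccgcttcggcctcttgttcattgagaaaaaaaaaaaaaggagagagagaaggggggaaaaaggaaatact
The letters occurred once in Dusp6, 2 times in Spred2 and not in Spry2. Among promoters of feedback genes 3 of 10 held them (30%), against 29.5% of the 32851 promoters of all genes, so their share was near that of any gene. Over all members it was 7 of 36 promoters (19.4%).

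**Figure D1:**
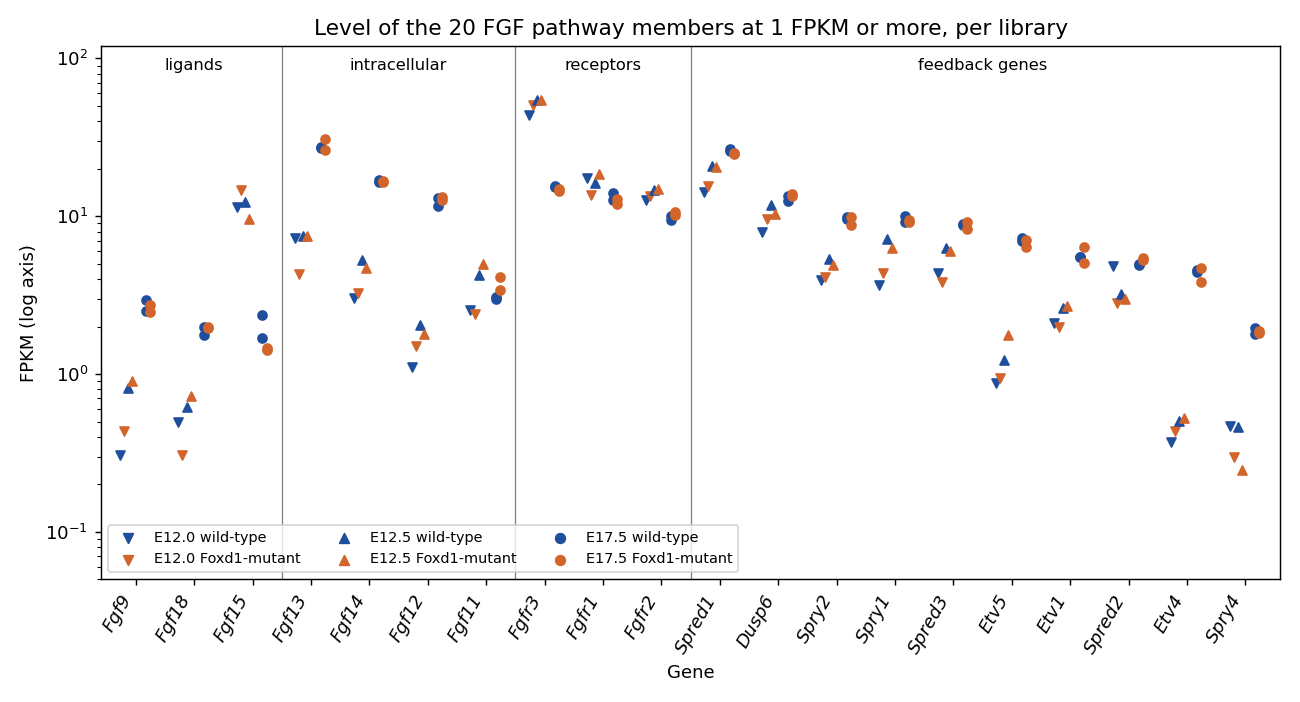
FPKM on a log axis for the 20 members with a mean of at least 1 FPKM at either age, 1 point per library, triangles for E12.0 (down) and E12.5 (up), circles for E17.5, blue for wild-type and orange for Foxd1-mutant. Fgf15 and Fgfr3 sit lower at E17.5 while Etv4, Etv5, Fgf12, Fgf13 and Fgf14 sit higher, and the genotypes lie close together at E17.5.

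Counted over the 35 members with any value above 0, 21 were higher and 4 lower in every late library than in every early one, where 41.2% and 12.6% of all such genes were so placed. With a mean of 1 FPKM over the libraries the counts were 15 and 3 of 20 members, against 45.4% and 17.4%, but Etv4, Fgf9, Fgf18 and Spry4 reached that mean only through E17.5 and so had to be higher there. Among the 16 members with a mean of 1 FPKM at E12 itself, 11 were higher (41% of all genes) and 3 lower (19.2%). All of these counts are in deposited FPKM, and narrow separations may change with the scaling. Tables of the early and late libraries were made separately, with 1 row per transcript in the late ones and 1 per gene in the early ones, so these are descriptions without a test.

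On the scale of log2(FPKM + 1), which understates the ratio of low genes, the stage difference was 2.40 for Fgf12, 1.94 for Fgf13, 1.88 for Etv4, 1.86 for Etv5, 1.83 for Fgf14 and 1.201 for Fgf9. At the other end it was -2.25 for Fgf15, -1.69 for Fgfr3, -0.43 for Fgfr2, -0.37 for Fgf8, -0.33 for Fgfr1, -0.08 for Fgf21 and -0.01 for Fgf11. Of these, Fgf8 and Fgf21 had a mean under 1 FPKM at both ages. The median was 0.84 over the 10 feedback genes, 1.88 over the intracellular class and -0.43 over the receptors at 1 FPKM, against 0.27 over 12519 genes. Only 8 of these feedback genes reached 1 FPKM at E12. Etv4 and Spry4, and Fgf9 among the values above, reached the filter only through E17.5 and so had to be higher there. Feedback genes had medians of 0.86 in wild-type and 0.83 in mutant. Markers of other tissues were also higher late: meningeal markers summed to 8.56 to 11.5 FPKM early and 150 to 271 late, endothelial markers to 30.9 to 55.3 and 91.4 to 107, and markers of the oligodendrocyte lineage to 42.9 to 48.1 and 74.2 to 90.0. Their part in the level of any member was not tested.

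**Figure D2:**
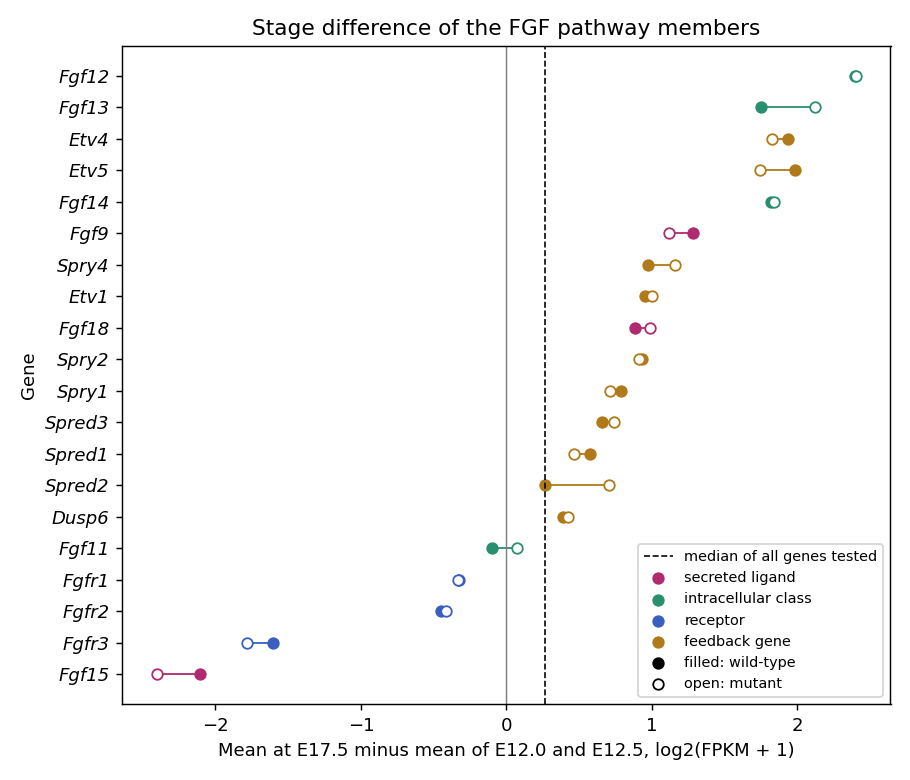
Mean of log2(FPKM + 1) at E17.5 minus the mean of E12.0 and E12.5 for the 20 members, filled points for wild-type and open points for mutant, coloured by role, with a dashed line at the median of all genes. Fgf12 is at the top and Fgf15 at the bottom, feedback genes lie to the right of 0 and receptors to the left, in both genotypes.

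Loss of Foxd1 was compared next, within each age. At E17.5 no member passed the adjusted threshold of 0.05 in limma's moderated test of log2(FPKM + 1), where 1 of 13235 genes did (0.00756%), and none of the 20 members tested had an unadjusted p under 0.05, as 5.7% of all genes had. The 95% intervals of all 20 log2 differences lay inside a 2-fold change of FPKM + 1 in either direction, and 19 inside a 1.5-fold change of it. For members near 1 FPKM these intervals do not bound the ratio of FPKM itself, which can be larger. Mutant and wild-type libraries were separated for 7 members (43.1% of all genes), 4 of them higher (20.9%) and 3 lower (22.2%) in the mutant. The median log2 difference was -0.04 over feedback genes, -0.07 over receptors (0.10 with the highest transcript row of each gene), 0.06 over the intracellular class and 0.0028 over all genes. With small RNA genes left out and values rescaled, these medians were 0.010, -0.017, 0.12 and 0.053 in the same order.

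The member nearest to the threshold at E17.5 was Fgf11. Its level was 3.08 and 2.99 FPKM in the wild-type libraries and 3.41 and 4.15 in the mutant ones, so the genotypes did not overlap. The log2 difference was 0.24 (standard error 0.0994, limma adjusted p = 0.689), and 0.13 without mutant replicate 2, the library with high telencephalic markers. Fgf15 averaged 2.02 ± 0.470 FPKM over the wild-type libraries and 1.45 ± 0.0281 over the mutant ones (mean ± SD, n = 2), again without overlap. Its log2 difference was -0.30 (standard error 0.128, limma adjusted p = 0.689). The size rested on the wild-type libraries, since it was -0.14 without wild-type replicate 1 and -0.45 without wild-type replicate 2. At this age 12 of the 16 hypothalamic markers were lower in both mutant libraries, as were 4 of 8 oligodendrocyte lineage markers (22.2% of all genes tested). Higher in both were 6 of 10 meningeal, 5 of 11 telencephalic and 3 of 8 endothelial markers (20.9% of all genes tested). The part of these tissues in the differences of Fgf11 and Fgf15 was not tested.

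Spred2, Spred1 and Fgfr3 followed, with separated libraries and small differences. Spred2 stood at 4.996 and 4.94 FPKM and at 5.30 and 5.46 in the mutant, a log2 difference of 0.10 (standard error 0.0667, limma adjusted p = 0.695). Spred1 stood at 26.5 and 25.8 FPKM and at 24.8 and 24.98 in the mutant, a difference of -0.07 (0.0502, adjusted p = 0.702). With small RNA genes left out and values rescaled, the difference was 0.14 for Spred2 and -0.013 for Spred1. Fgfr3 had a difference of -0.07 (0.0548, adjusted p = 0.709), or -0.04 without mutant replicate 2 and -0.017 with small RNA genes left out. Its direction turned, to 0.27, when the highest transcript row was read in place of the sum. Dusp6 (0.07) and Fgfr2 (0.08) were the others without overlap. The other 13 tested members had overlapping libraries and log2 differences between -0.09 for Fgfr1 and 0.06 for Fgf12.

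In the early tissue the E12.0 and E12.5 pairs entered 1 fit with stage as a block, so that the spread is the disagreement between the pairs. None of the 16 members tested passed in limma (4 of 11952 genes did, 0.0335%), and none had an unadjusted p under 0.05 (1.41% of genes). All 16 intervals lay inside a 2-fold change of FPKM + 1, and 13 inside a 1.5-fold change of it. The same direction in both pairs was found for 5 of the 16 (47.8% of all genes), 3 of them higher (25.9%) and 2 lower (21.8%) in the mutant. No member reached a 2-fold difference in a single early pair on this scale, as 0.72% of genes did upward and 1.83% downward in the E12.0 pair and 0.167% and 0.535% in the E12.5 pair.

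Spred2 had the largest early difference, with an E12.0 pair of 4.87 and 2.84 FPKM and an E12.5 pair of 3.21 and 2.97. The log2 difference was -0.35 (standard error 0.195, limma adjusted p = 0.976), made up of -0.61 in the first pair and -0.08 in the second. Fgf13 behaved alike, at -0.63 and 0.01. The hypothalamic markers summed to 276 and 182 FPKM in the E12.0 pair and to 289 and 293 in the E12.5 pair, and their part in these differences was not tested. With an E12.5 library left out, the E12.0 pair alone gives the difference, -0.61 for Spred2 and -0.63 for Fgf13. The spread then comes from the E17.5 libraries alone, a different age, so no p-value is given for 1 library against 1.

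The other early differences were smaller. Etv5 was higher in the mutant in both pairs (0.05 and 0.31), with a fitted difference of 0.18 (standard error 0.191), and so were Fgfr3 (0.11, standard error 0.129) and Fgfr2 (0.08 and 0.01). Spred3 was lower in both, with a fitted difference of -0.11 (standard error 0.147). Fgf11 had a fitted difference of 0.07 (standard error 0.165) from pairs of opposite direction. Limma adjusted p was 0.976 for Etv5, Fgfr3 and Spred3 and 0.978 for Fgf11. Fgf15 turned direction between the early pairs, at 0.33 and -0.34, with a fitted difference of -0.0016.

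Over all stages together no member of 20 passed in limma, nor did any gene (0%), Foxd1 included. Since Foxd1 was lower in the mutant at each stage, a lack of calls in this fit does not show a lack of effect. No member had an unadjusted p under 0.05, as 5.55% of genes did. Fgf11 had a log2 difference of 0.15 (standard error 0.0828, adjusted p = 0.749), Fgf15 of -0.15 (0.132, 0.770), Spry4 of -0.11 (0.0773, 0.749), Spred3 of -0.07 (0.0576, 0.762) and Fgfr2 of 0.06 (0.0473, 0.753). All 20 intervals lay inside a 1.5-fold change of FPKM + 1, which does not bound the FPKM ratio of low members such as Spry4. Spry4 was lower in the mutant in both early pairs, 0.469 and 0.298 FPKM and 0.464 and 0.247, and overlapped at E17.5.

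Whether the effect of genotype differed with age was tested as the E17.5 effect minus the early one. It passed in limma for 4 of 12519 genes (0.032%) and for no member, and no member had an unadjusted p under 0.05, as 3.95% of genes had. Spred2 came closest, at 0.45 (standard error 0.188, limma adjusted p = 0.749). Etv5 had -0.24 (0.149, 0.749), Fgfr3 -0.18 (0.105, 0.749), Spry4 0.19 (0.1501, 0.749) and Fgf15 -0.29 (0.256, 0.752). Opposite directions in the early pairs and the late libraries were seen in Fgfr3 and Spred2, 2 of 20 members (8.65% of all genes), and with any value above 0 also in Fgf8 (7.24% of genes). All 20 intervals lay inside a 2-fold change of FPKM + 1, and the widest, of Fgf15, reached 0.92 on the log2 scale.

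**Figure D3:**
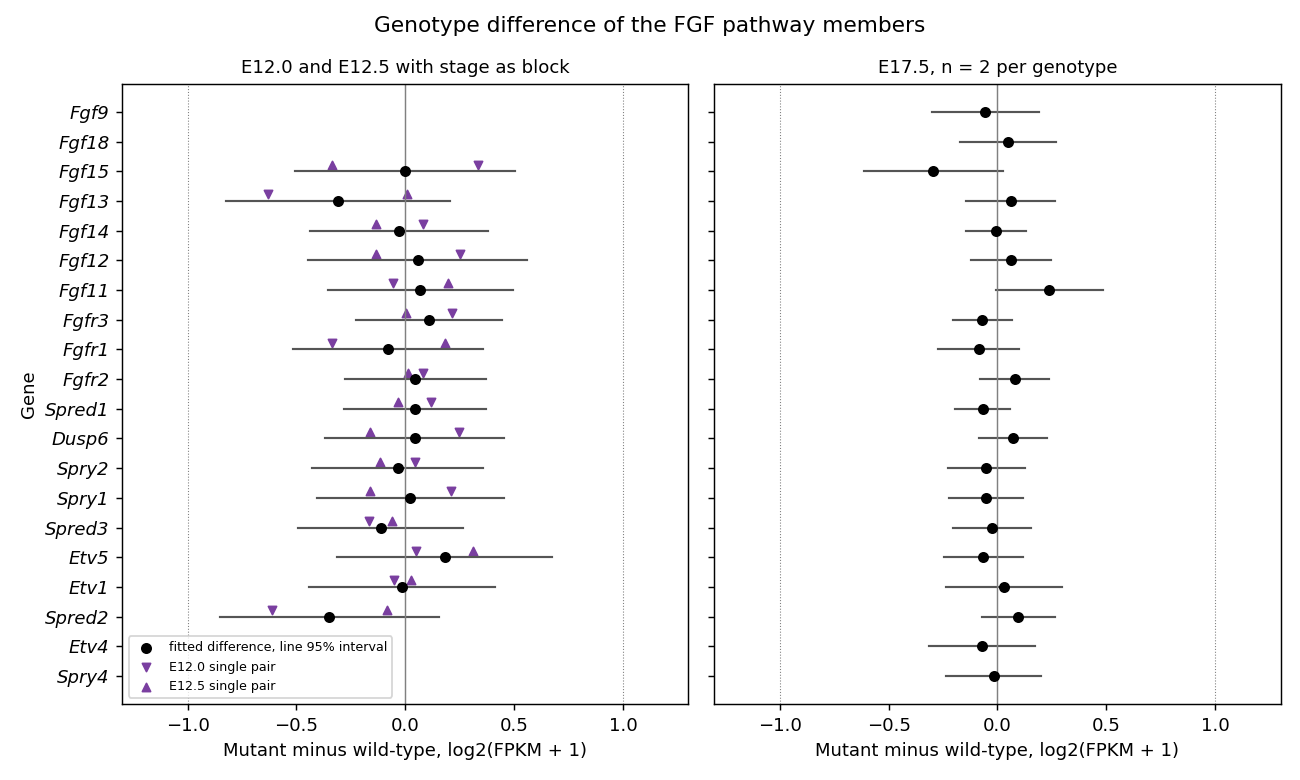
Mutant minus wild-type difference of log2(FPKM + 1) for each member, black points with 95% interval lines, for both early stages with stage as a block (left, 16 members tested, purple triangles for the single pairs) and for E17.5 (right, 20 members). All intervals lie between the dotted lines at a 2-fold difference of FPKM + 1, and the single pairs of Fgf15, Fgf13 and Spred2 lie far apart.

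The E17.5 tables give transcripts separately, which shows the makeup of 10 members at 1 FPKM that have several transcript rows, 27 in all. Fgfr2 was read mainly as NM_010207, at 79.3% to 85.4% of its FPKM, with NM_201601 at 14.6% to 20.7%. Fgfr1 was shared between NM_010206 (52.9% to 60.1%) and NM_001079908 (38.9% to 47.1%), and NM_001079909 did not exceed 3.05%. Fgfr3 was spread over 5 transcripts, of which NM_008010 took 39.2% and 28.8% in the wild-type libraries and 48.5% and 40.3% in the mutant ones, and NM_001205270 20.5%, 26.2%, 17.7% and 13.8% in the same order. These shares did not overlap between genotypes, although the wild-type replicates lay farther apart than the nearest libraries of different genotype. The gene total of Fgfr3 stayed between 14.4 and 15.5 FPKM.

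In the intracellular class Fgf14 was divided between NM_010201 (51.5% to 55.5%) and NM_207667 (44.5% to 48.5%). Fgf12 was read as NM_010199 (46.1% to 55.9%) and NM_183064 (36.7% to 47.8%), with both other transcripts at 5.98% or less. Fgf13 had 3 transcripts, and NM_001290415 ranged from 3.79 FPKM in mutant replicate 1 to 10.05 in mutant replicate 2, with 6.27 and 5.11 in wild-type. That replicate had the highest gene total of Fgf13, 30.7 FPKM, while NM_010200 stayed between 9.14 and 9.74 FPKM in all 4 libraries. Over the 27 transcript rows 2 shares were higher and 3 lower in both mutant libraries, against 16.1% and 16.2% of 10853 transcript rows of all such genes. Shares of transcripts of 1 gene are estimates that depend on each other, and no test was made.

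**Figure D4:**
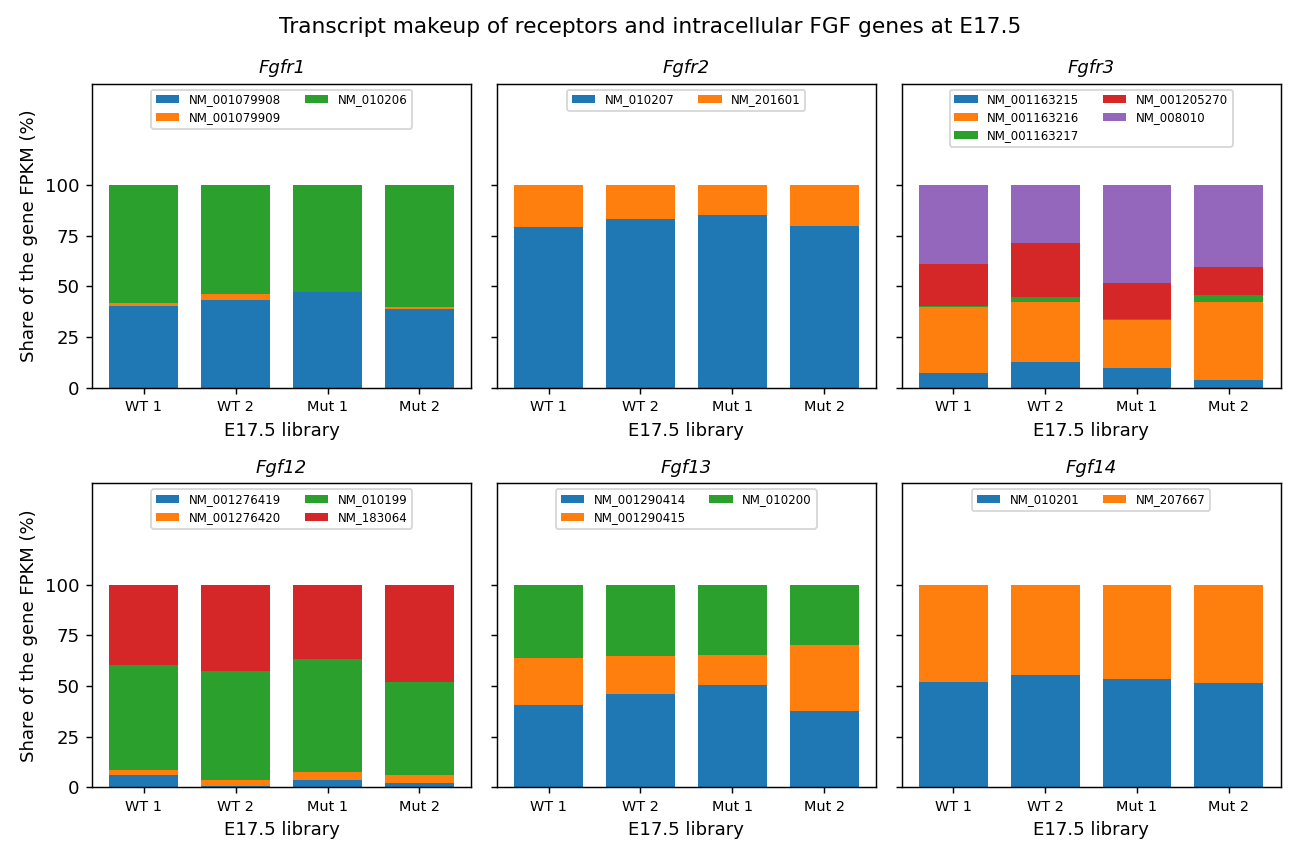
Share of each gene's FPKM by RefSeq transcript in the 4 E17.5 libraries (wild-type 1 and 2, mutant 1 and 2) for the receptors and the intracellular genes, as stacked bars that sum to 100%. Fgfr2 and Fgf14 have a similar makeup in all libraries, while the shares of Fgfr3 and Fgf13 differ between replicates of a genotype.

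The wider pathway was read from lists of co-receptors and adaptors, the RAS and MAP kinase cascade, further feedback genes and heparan sulfate genes. At E17.5 no gene of these passed the adjusted threshold, of 15, 12, 7 and 24 tested, and 3 had an unadjusted p under 0.05, a share near the 5.7% of all genes, so nothing is read from the count. Flrt2, a membrane protein that binds FGF receptors, stood at 15.4 and 15.3 FPKM and at 16.97 and 17.6 in the mutant (log2 0.16), and its relative Flrt3 at 15.0 and 15.5 and at 16.7 and 20.1 in the mutant (0.25). Map2k2, the kinase MEK2, stood at 48.1 and 46.1 FPKM and at 42.5 and 36.0 in the mutant (-0.26). Limma adjusted p was 0.689 for all of these.

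In the early libraries no gene of 15, 12, 7 and 22 tested passed, and Mapk3, the kinase ERK1, alone had an unadjusted p under 0.05 (1.41% of all genes had), with 30.9 and 16.96 FPKM in the E12.0 pair and 33.4 and 26.8 in the E12.5 pair (log2 -0.57, limma adjusted p = 0.976). At E17.5 the genotypes overlapped for Mapk3, with 51.7, 53.1, 52.5 and 50.03 FPKM. The difference of its effect between the ages was 0.54 (limma adjusted p = 0.749). Over all stages together Flrt3 (0.17) and Dusp1 (-0.16), a phosphatase of MAP kinases, were the list genes with an unadjusted p under 0.05 (5.55% of all genes had), each with a limma adjusted p of 0.749.

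Across the ages, where 45.4% of all genes at 1 FPKM were higher and 17.4% lower in every late library, heparan sulfate genes were higher for 17 of 24 and lower for 4 (Gpc1, Gpc2, Gpc4 and Sdc1). Only 22 of the list reached 1 FPKM at E12 itself. Gpc5, at 0.222 to 0.496 FPKM early, reached the filter only through E17.5 and so had to be higher there. Nothing is read from the count. In the kinase cascade it was 7 of 12 higher and 1, Nras, lower. Among co-receptors and adaptors 7 of 15 were higher, and Fgfrl1, a receptor-like protein without a kinase domain, and Plcg1 were lower. The further feedback genes were divided: Il17rd, an inhibitor at the receptor, and Myc were higher late, while the immediate early genes Dusp1 and Ier2 and the gene Spsb4 were lower, of 7 measured.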

How the data were processed

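Values were FPKM per library, from RNA of pooled embryonic hypothalamus. Per the submitters' processing notes, the authors used TopHat, Cufflinks and mouse build mm9, with no versions given. The deposited E12 tables held 23737 gene rows, 8 of them without a gene name (0.0285% to 0.0360% of FPKM, left out), and the deposited E17.5 files 32952 transcript rows. Rows were summed by symbol. The members and lists were chosen with earlier results of these data known.

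Genotypes were compared on log2(FPKM + 1) with limma 3.58.1 in R 4.3.3, with a variance trend and a minimum mean of 1 FPKM over the libraries of the fit. P-values are two-sided and Benjamini-Hochberg adjusted over all genes tested, with a threshold of 0.05. The E17.5 fit held 4 libraries and no covariate, the E12 fit 4 with stage as a block, and the fits for all stages together and for the change with age all 8 with stage as a block. Levels across ages were not tested. Members given with statistics were, per comparison, the 5 with the smallest p among those with separated libraries at E17.5 or 1 direction in both early pairs. The fits were tested on simulated data. To look for whole fragments, low FPKM values of transcripts over 2500 nt (GENCODE lengths less 170 nt) were scaled by trial depths. At the best depth 78.1% to 79.8% lay within 0.1 of a whole number in the E17.5 libraries and 11.3% to 35.2% in the early ones, so no count test was run. Python 3.11.15 with numpy 2.4.6, pandas 2.3.3 and matplotlib 3.10.9 did the rest. Alternatives changed the pseudocount, filter, normalization, variance trend, joining of rows, blocks and libraries.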

Additional observations from a re-analysis of the deposited data

Results flagged for a closer look

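In 3 of 35 members with any value above 0, every library differed in one direction at both early stages and in the other at E17.5. With a mean of 1 FPKM it was 2 of 20 members. The shares over all genes were 7.24% and 8.65%, so nothing is read from the counts. Fgf8 was higher in the mutant early and lower late, with a difference between the ages of -0.51 on the log2(FPKM + 1) scale. It was below the filter, and limma without a filter gave an unadjusted p of 0.00192 and an adjusted p of 0.810. Fgfr3 was also higher in the mutant early and lower late (-0.18, limma adjusted p = 0.749). Spred2 went the opposite way, lower early and higher late (0.45, limma adjusted p = 0.749). None of these differences passed.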

How the results depend on the processing

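No member passed the threshold in any comparison under any alternative, except with an E12.5 library left out. At E12 and for the difference between ages, leaving out an early library took all the spread from the E17.5 libraries. Passes there set 1 early library against 1 and are not read as a result. Over the leave-one-out settings the count of members ranged from 0 to 2 at E12 and from 0 to 1 (Spred2) for the difference between ages. Counts of all genes past the threshold ranged over the alternatives from 0 to 44 at E17.5 (1 as reported), from 1 to 2595 at E12 (4) and from 0 to 1465 for the difference between ages (4), and stayed at 0 over all stages. The early count was 78 with no stage block, and 58 when the E12.0 pair was dropped, a setting chosen after the data were seen. Of the settings applied to the levels across ages, also chosen then, a filter at 5 FPKM left 8 of 12 members higher late in place of 15 of 20, and quantile normalization gave 5 lower in place of 3. With the highest row of a symbol in place of the sum Fgfr3 reversed, to 0.27 at E17.5 and 0.16 for the difference between ages, since 1 of its transcripts was then read. Over the leave-one-out settings the log2 difference of Fgf11 at E12 ranged from -0.056 to 0.19, and that of Fgf15 between ages from -0.63 to 0.040, each reversing where 1 early pair is left. With the replicate number as a replicate block 0 members passed at E17.5, over all stages or for the difference between ages (E12 has 1 number and no such fit), and 16 genes in place of 1 passed at E17.5. Deviations of same-numbered E17.5 libraries from their group means had a correlation of 0.0280 over 13235 genes, so the numbers were not taken to pair libraries. At the depth of the early libraries, which was not recovered, no limit can be set on a value listed at 0.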
